A study of Rattus norvegicus with 36 samples.

Results

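The effect of inhaled crystalline silica on the lung transcriptome of the rat was compared between 6 and 3 weeks of exposure. The quantity examined is a contrast of contrasts, the silica-minus-air difference at 6 weeks minus the silica-minus-air difference at 3 weeks, called the difference of silica effects in the following. It rests on 24 of the 36 arrays of the study, 6 in each of 4 groups. These were rats exposed to 15 mg/m3 silica for 3 weeks, rats exposed to air for 3 weeks, and the corresponding silica and air rats at 6 weeks. All were male CDF Fisher 344 rats labelled as 3 months old, and exposure ran for 6 hours per day on 5 days per week. The remaining 12 arrays, silica and air at 12 weeks, entered the fit for the estimate of the spread and are given for orientation. Each array held the RNA of the lung of 1 rat on an Illumina rat BeadChip, so the bulk tissue mixes all cell types, and fewer cells of a type cannot be told apart from less RNA per cell.

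Respirable crystalline silica is taken up by alveolar macrophages, whose lysosomes it damages. Interleukin-1 released by these cells acts on epithelium and other cells through NF-kB, the transcription factor that induces the chemokines drawing neutrophils into the airspace. Repeated exposure leads to a lasting inflammation with excess surfactant, and in time to the fibrosis known as silicosis. A contrast of 2 exposure times asks which of these responses had grown or faded after the longer exposure.

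The mean raw intensity ran from 345 to 449 over the 24 arrays, and 48.7% to 52% of the probes were detected. The 6-week arrays formed a set of their own. On the first principal component of all arrays, which held 54.5% of the variance, they lay between 22.7 and 29.8 whether from air or silica rats, whereas the 3-week arrays lay between -25 and -14.1 with 1 exception. Air rat 5 at 3 weeks lay at 8.72. Silica rat 4 at 3 weeks held the other end at -25, against -18.5 for the next of its group, and it was the outlying rat of its group for several of the genes described here. Between the air groups alone, 5922 of 9078 genes (65.2%) differed between 6 and 3 weeks, and week of exposure and array set cannot be told apart in these levels. Each week was therefore measured against its own air group. A shift that acts equally on air and silica arrays of a week cancels in the difference of silica effects, while one that scales effects does not, and its part was not tested. Lung identity was checked on type II pneumocyte secretions. Sftpb and Sftpd were detected on all arrays, with means in the 4 groups of 13.58 to 14.04 and 8.98 to 10.50 on the log2 intensity scale.

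Few genes had a different response at the 2 times. Of 9078 genes tested, the silica effect was higher at 6 than at 3 weeks for 6 (0.0661%) and lower for 1 (0.011%), at an adjusted p under 0.05 in limma, or 7 in all (0.0771%). The 6 were Cxcl6, Rnase9, Stra6l, Nfkbiz, Tnfaip2 and Enpp2, and the 1 was Dmkn. A difference of at least 1.5-fold was called for 3 of the 6 and for Dmkn. By comparison, silica against air was called for 1234 genes (13.6%) at 3 weeks and 1571 (17.3%) at 6 weeks. Without adjustment, 338 genes (3.72%) were higher and 414 (4.56%) lower at p under 0.05, which is 8.28% in either direction. When each silica rat was set against the mean of its own air group, the silica rats of the 2 weeks did not overlap for 194 genes higher at 6 weeks (2.14%) and 204 lower (2.25%).

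The promoters of the inflammatory genes among them are shown because these are classical targets of NF-kB. Each run holds the 250 bases before the annotated start, 5′ to 3′ on the strand of the gene, from RefSeq on build GRCr8. Capitals mark matches to the NF-kB consensus, searched on both strands. The runs lie at chr14:17596418-17596667 (minus strand) for Cxcl6, chr14:17479322-17479571 (minus strand) for Cxcl1, the related chemokine described below, chr11:58251471-58251720 (plus strand) for Nfkbiz and chr6:136297832-136298081 (plus strand) for Tnfaip2.
Cxcl6: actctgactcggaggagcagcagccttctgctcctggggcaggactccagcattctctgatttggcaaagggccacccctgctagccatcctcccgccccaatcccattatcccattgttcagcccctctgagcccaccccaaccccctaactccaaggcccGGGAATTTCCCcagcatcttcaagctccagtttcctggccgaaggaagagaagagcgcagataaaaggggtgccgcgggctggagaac
Cxcl1: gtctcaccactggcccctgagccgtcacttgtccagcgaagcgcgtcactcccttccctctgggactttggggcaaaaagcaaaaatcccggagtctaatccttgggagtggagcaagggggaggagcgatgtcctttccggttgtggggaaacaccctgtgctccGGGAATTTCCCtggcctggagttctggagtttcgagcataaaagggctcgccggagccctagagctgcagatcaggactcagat
Nfkbiz: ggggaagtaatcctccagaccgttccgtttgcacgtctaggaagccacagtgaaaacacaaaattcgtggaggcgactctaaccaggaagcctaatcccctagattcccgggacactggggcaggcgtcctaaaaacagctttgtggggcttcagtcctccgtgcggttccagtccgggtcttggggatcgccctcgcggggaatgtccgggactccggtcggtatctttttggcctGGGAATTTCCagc
Tnfaip2: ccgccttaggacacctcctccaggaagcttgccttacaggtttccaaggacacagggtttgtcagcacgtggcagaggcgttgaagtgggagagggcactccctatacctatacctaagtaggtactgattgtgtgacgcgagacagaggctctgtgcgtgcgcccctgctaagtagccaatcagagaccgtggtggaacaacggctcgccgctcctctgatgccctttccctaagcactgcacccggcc
In the Cxcl6 and Cxcl1 promoters the stretch GGGAATTTCCC matched on both strands, as a pair of matches offset by 1 base, and it began 88 and 84 bases before the start. In Nfkbiz the stretch GGGAATTTCC began 13 bases before the start. The Tnfaip2 window held no match to these letters. A match was found in 1185 of 33469 promoter windows of this length (3.54%), in 330 of 7873 windows of tested genes (4.19%), in 6 of 24 windows of the chemokine list and in 7 of 26 of the IL-1, TNF and NF-kB list. Of the 7 genes with a called difference, 6 had a promoter in the table, and 2 of these held a match. A match describes the letters of the window and is not evidence of binding.

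Cxcl6, a CXC chemokine that attracts neutrophils, had the largest difference of silica effects of all tested genes. In air rats its probe was detected on 0 of 6 arrays at either week, and the level stayed between 4.51 and 4.77. After 3 weeks of silica the level was 5.52 at the lowest, 6.03 at the median and 6.36 at the highest. After 6 weeks of silica it was 7.73, 8.09 and 8.77. All silica rats thus lay above all air rats, and every 6-week silica rat lay above every 3-week silica rat. For this and the other called genes, week and array set cannot be told apart in such levels. The genes were chosen by this difference, so the order of silica rats between weeks describes it and is no separate support. Because the air groups were not well above background, the effect has only a lower bound, at least 2.44-fold at 3 weeks and at least 11.2-fold at 6 weeks. The fitted difference of silica effects was 2.14 ± 0.27 on the log2 scale (SE, 6 rats per group, adjusted p = 3.96e-05). Between the weeks the air levels of Cxcl6 differed by 0.08 and the silica levels by 2.21. With the probe undetected in air at either week, a shift between the air groups could have gone unseen, and its part was not tested.

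Rnase9, a member of the ribonuclease A family, was detected on all 24 arrays. Its lowest, median and highest levels were 5.54, 5.98 and 6.05 in air and 7.59, 7.68 and 7.81 in silica at 3 weeks. At 6 weeks they were 5.23, 5.51 and 5.84 in air and 7.84, 8.23 and 8.44 in silica. Air and silica rats did not overlap at either week, and every silica rat at 6 weeks lay above every silica rat at 3 weeks. The gene was 3.45-fold higher with silica at 3 weeks and 6.33-fold higher at 6 weeks, a ratio of 1.83 (log2 difference 0.87 ± 0.14, adjusted p = 0.00133). Between the weeks the silica groups differed by 0.51 and the air groups by -0.36, both called. The call of the difference was lost when the arrays were scaled to a common median (0.55, adjusted p = 0.544) and when quantile normalisation was done within each week (0.59, adjusted p = 0.127). The authors' values gave a smaller difference of 0.44 that passed, and a background from all probes gave 0.415, which passed too.

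Stra6l encodes a receptor that in mouse takes up retinol from its plasma carrier. Its median level was 4.84 in air and 5.42 in silica at 3 weeks, with ranges of 4.64 to 5.22 and 5.07 to 5.62 that overlapped. At 6 weeks the median was 5.33 in air (5.10 to 5.50) and 6.75 in silica (6.17 to 6.96), with no overlap. The probe was detected on 3 of 6 air arrays at 3 weeks and on all of the other groups. The silica effect was 0.48 ± 0.12 at 3 weeks and 1.31 ± 0.12 at 6 weeks, and the difference of 0.84 ± 0.17 passed the test (adjusted p = 0.0243). It missed the threshold when any of 6 single rats was left out, air rats 2 or 5 or silica rat 4 at 3 weeks, or silica rats 2, 3 or 5 at 6 weeks, with adjusted p from 0.0514 to 0.0689. With a background taken from all probes the difference shrank to 0.17, though it still passed, and with the authors' values to 0.38.

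Both NF-kB genes were dim, and at 3 weeks their probes were detected in neither air nor silica rats, so the effect there has no bound. Both passed the filter of detection on at least 6 arrays only through the silica rats at 6 weeks, the group where they were high. Nfkbiz encodes IkB-zeta, a nuclear cofactor that NF-kB needs for a second wave of its targets. Its level was 4.41 to 4.66 over all 12 rats at 3 weeks, where the probe was detected on 0 arrays. In air rats at 6 weeks it was 4.61, 4.85 and 5.01 (lowest, median, highest) with detection on 3 of 6 arrays, and in silica rats it was 5.33, 5.47 and 5.73 with detection on all 6. The air groups of Nfkbiz thus differed between the weeks too, by 0.37 (adjusted p = 5.02e-05 in limma), and the silica groups by 0.94. Tnfaip2, a cytoplasmic protein first found as a gene induced by TNF, was detected on the 6 silica arrays at 6 weeks and on none of the other 18. Those 6 levels ran from 5.13 to 5.57, above the 4.53 to 4.82 of the other groups, and the silica effect at 6 weeks was at least 1.45-fold. The difference of silica effects was 0.58 ± 0.10 for Nfkbiz (adjusted p = 0.00612) and 0.49 ± 0.10 for Tnfaip2 (adjusted p = 0.0296). With no background correction the calls were lost (adjusted p = 0.292 and 0.220), as they were with a background taken from all probes (0.121 and 0.158). For Tnfaip2 the call was also lost with the authors' values (0.0986) and without any 1 of 8 rats.

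Enpp2 encodes autotaxin, the secreted enzyme that makes lysophosphatidic acid. It was bright in every group, and its 2 air groups coincided. The lowest, median and highest air levels were 11.74, 11.83 and 11.92 at 3 weeks and 11.73, 11.83 and 11.88 at 6 weeks. With silica they were 12.05, 12.18 and 12.27 at 3 weeks and 12.44, 12.51 and 12.59 at 6 weeks. None of the silica rats overlapped with air rats or between weeks. The gene was 1.25-fold higher at 3 weeks and 1.62-fold higher at 6 weeks, the smallest difference that passed (0.37 ± 0.07, adjusted p = 0.00973). The call was lost with median scaling (adjusted p = 0.931) and with the authors' values (0.0876).

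Dmkn, dermokine, a secreted protein known from the upper epidermis, was the gene whose response faded. It was detected on 0 of 6 air arrays at either week, at levels of 4.50 to 4.79. With silica its lowest, median and highest levels were 5.54, 5.79 and 6.07 at 3 weeks, all detected, and 4.58, 4.82 and 5.16 at 6 weeks, 3 detected. The silica rats of the 2 weeks did not overlap, and at 6 weeks they met the range of the air rats. The effect was at least 2.13-fold at 3 weeks and at least 1.12-fold at 6 weeks, where silica against air missed the threshold (adjusted p = 0.0588). The difference of silica effects was -0.91 ± 0.14 (adjusted p = 0.00116). Cxcl6 and Dmkn kept their call in all 37 alternatives run. The size depended on the processing, with fitted differences from 0.92 to 2.14 for Cxcl6 and from -0.96 to -0.09 for Dmkn. Leaving out single rats gave 2.02 to 2.23 for Cxcl6 and -0.97 to -0.85 for Dmkn.

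**Figure D1:**
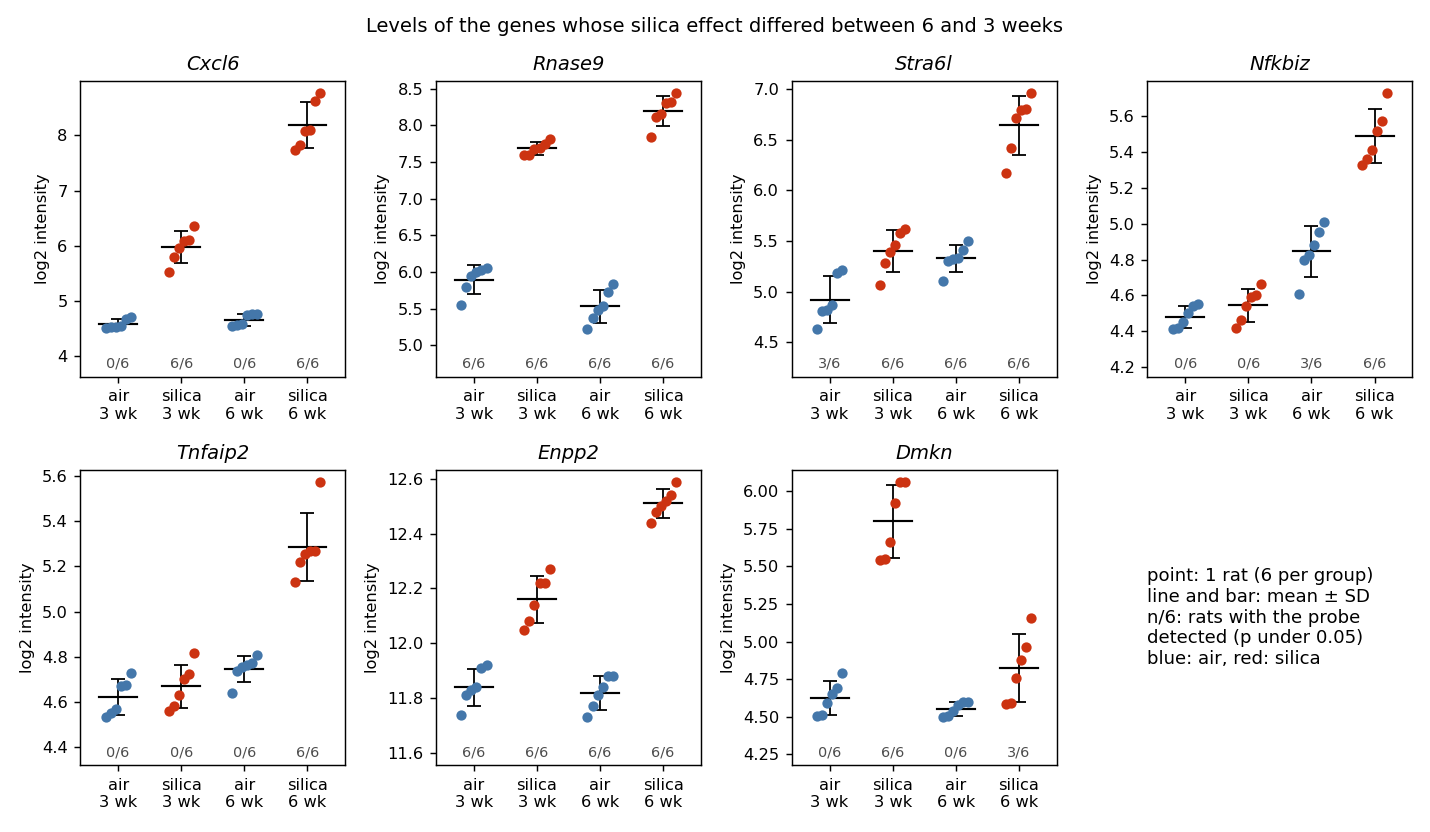
Levels of the 7 genes with a called difference, as log2 intensity per rat in 4 groups of 6 (blue air, red silica), with mean ± SD and the number of rats in which the probe was detected. The silica rats at 6 weeks stand above those at 3 weeks for 6 genes and below them for Dmkn. The genes were chosen by this difference, and week and array set cannot be told apart in these levels.

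The 12-week arrays, which the contrast does not use, give values at a later time. For each of the 6 genes with a higher effect at 6 weeks, the fitted value at 12 weeks lay between those at 3 and 6 weeks, without a test of these steps. These genes were chosen by a high effect at 6 against 3 weeks, and the 6-week arrays are a set of their own. A value in between can follow from that choice and does not show a peak at 6 weeks. The silica effect at 12 weeks was 2.06 ± 0.10 for Rnase9, 1.02 ± 0.12 for Stra6l and 0.62 ± 0.05 for Enpp2 (log2, SE). Where the air group was not well above background it was at least 4.88-fold for Cxcl6, at least 1.045-fold for Tnfaip2 (adjusted p = 0.00643) and at least 1.13-fold for Dmkn. Nfkbiz was not called at 12 weeks (adjusted p = 0.200).

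**Figure D2:**
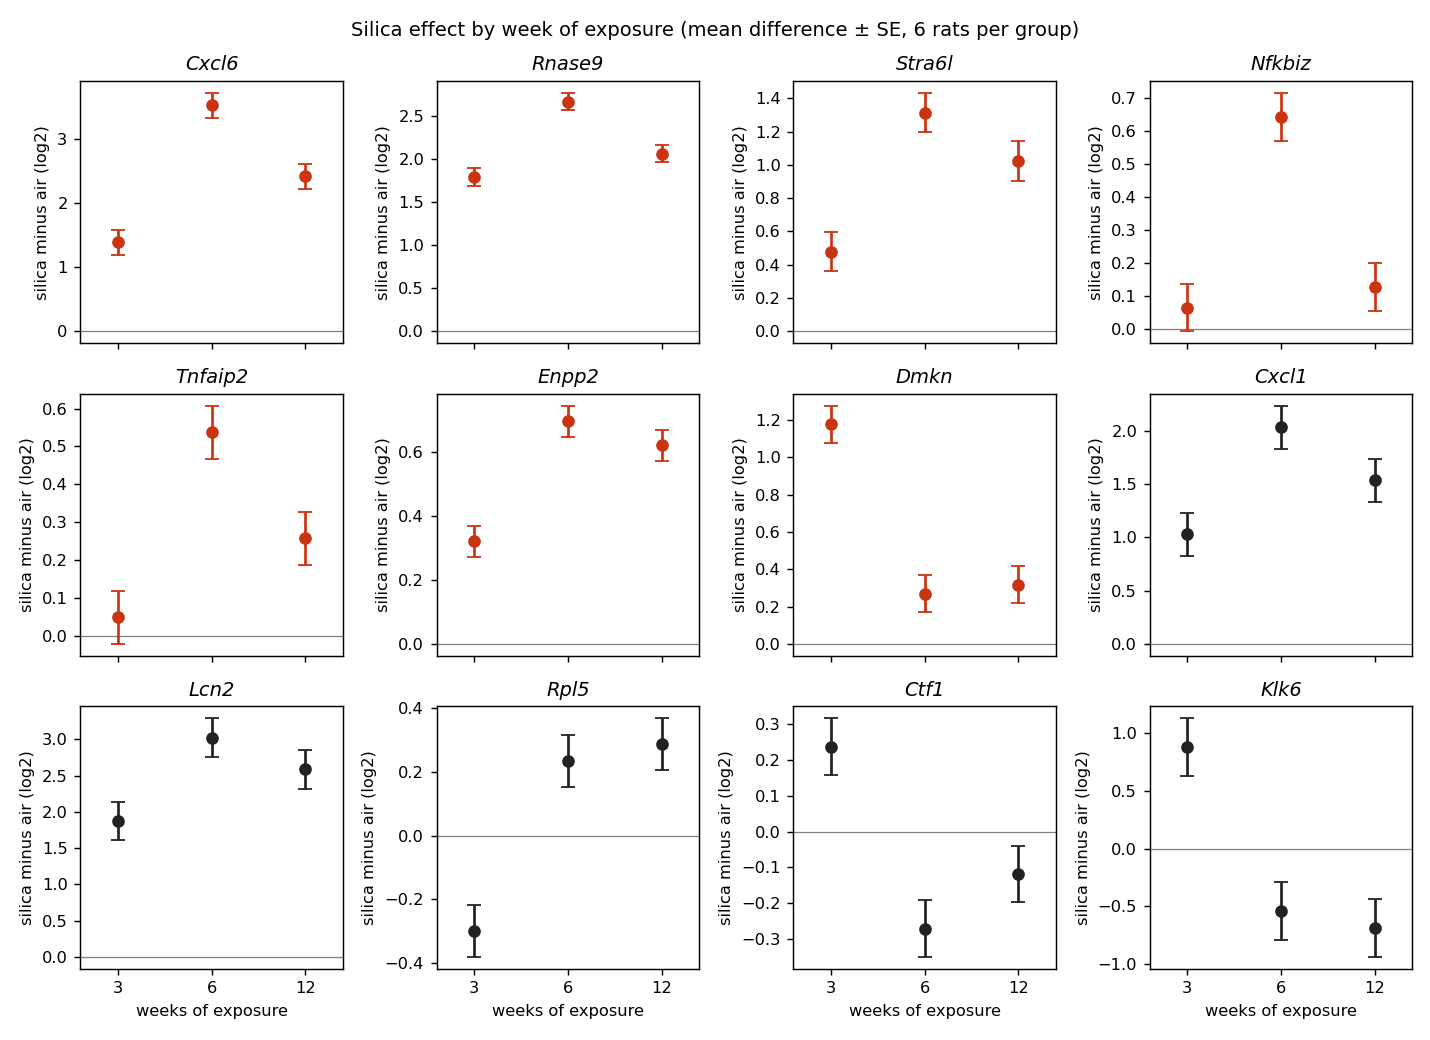
Fitted silica-minus-air difference (log2, ± SE, 6 rats per group) at 3, 6 and 12 weeks for the 7 called genes (red) and 5 genes whose difference between 6 and 3 weeks did not pass (black). The red values at 6 weeks exceed those at 3 weeks except for Dmkn; values of Cxcl6, Nfkbiz, Tnfaip2 and Dmkn rest on air groups near or below detection.

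Across all genes the responses at the 2 times were alike in direction. The silica effects at 3 and 6 weeks, which share no samples, correlated across the 9078 genes with r = 0.723 (Spearman rho 0.579). Genes are not independent, and the 2 sets share the probes and their intensities. At both weeks 465 genes were called higher and 282 lower with silica. Another 332 were called higher and 489 lower only at 6 weeks, and 216 and 268 only at 3 weeks. Among the genes called at a single week, the difference itself passed for 3, Nfkbiz, Tnfaip2 and Dmkn, so few of these calls came with a called difference between weeks. The median SE of a difference was 0.0985, and for 8485 genes (93.5%) its 95% interval lay within 1.5-fold in either direction. Among the 2055 genes called at 3 or 6 weeks, this held for 1871.

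**Figure D3:**
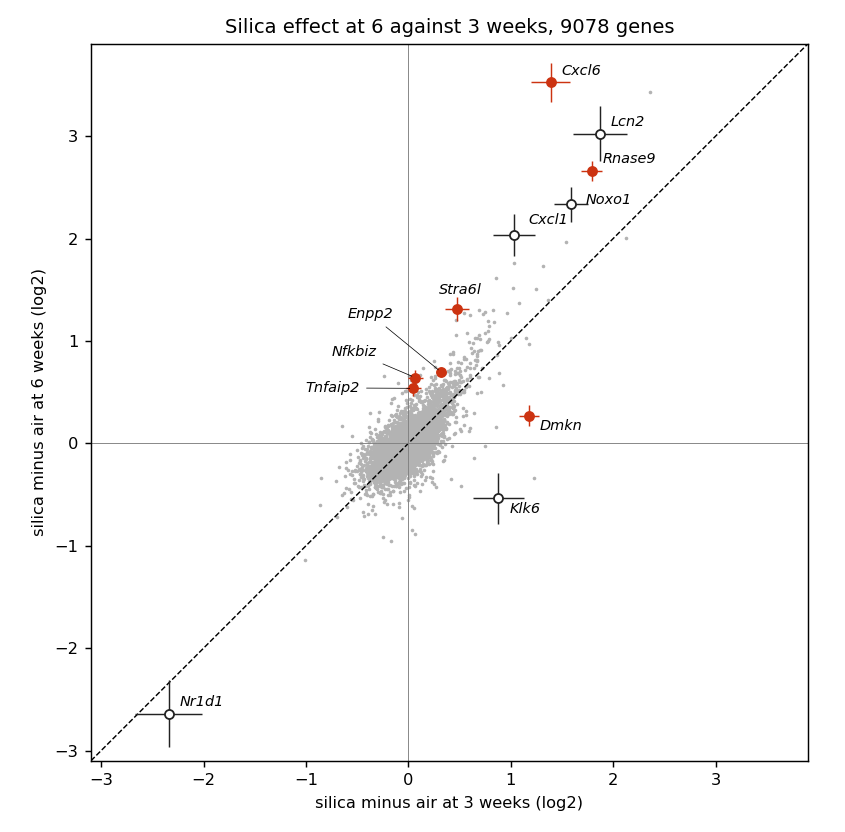
Silica-minus-air difference at 6 weeks (vertical) against that at 3 weeks (horizontal), log2, for 9078 genes in grey; the dashed line marks equal effects. Red points (± SE) are the 7 called genes, open points are genes named in the text whose difference did not pass, and Cxcl6 lies farthest above the line.

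The strongest responses were chosen after their values were seen. Of 17 genes with an effect of at least 2-fold at both weeks, 15 were higher and 2 lower with silica, and of the 15 the effect was larger at 6 weeks for 13. The interval of the difference included 0 for 7 of the 17, and the difference was called for Cxcl6 and Rnase9. Slc26a4, the anion exchanger pendrin, rose by 2.36 at 3 weeks and 3.44 at 6 weeks (difference 1.08 ± 0.46, adjusted p = 0.536). Mmp12, the macrophage elastase, rose by 2.12 and 2.0 (difference -0.12, 95% interval -0.96 to 0.73). Nr1d1, a repressor of the circadian clock, was lower at both weeks, at -2.34 and -2.64 (difference -0.30, interval -1.24 to 0.64). The hour of tissue collection was not used here.

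Genes chosen on the 12-week arrays alone had larger median effects at 6 than at 3 weeks. The 1061 genes called higher with silica at 12 weeks had a median effect of 0.159 at 3 weeks and 0.207 at 6 weeks, and the difference was above 0 for 72.6% of them against 46.6% of all tested genes. For the 145 of these that changed by at least 1.5-fold at 12 weeks the medians were 0.501 and 0.704, with 89% above 0. The 1290 genes called lower at 12 weeks had medians of -0.0799 and -0.126, with 30.5% above 0. These are descriptions over genes, which are not independent.

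Among genes detected in all 4 groups, those next in line missed the threshold. Rpl5, a protein of the large ribosomal subunit, was lower with silica at 3 weeks (-0.30, adjusted p = 0.0110) and higher at 6 weeks (0.23, adjusted p = 0.0423). Its levels in silica rats were 5.68 to 6.23 at 3 weeks and 6.80 to 7.01 at 6 weeks, and in air rats 5.99 to 6.64 and 6.60 to 6.80. Air and silica overlapped at 3 weeks and met at 6 weeks. The difference of 0.53 ± 0.11 did not pass (adjusted p = 0.0549). It passed in 8 of 38 alternatives and shrank to 0.12 at the lowest under other processing. Ctf1, cardiotrophin 1, a cytokine of the IL-6 family, moved in the opposite order, 0.24 at 3 weeks and -0.27 at 6 weeks, each called (difference -0.51 ± 0.11, adjusted p = 0.0606). Outside the genes detected in all 4 groups, the probe of the olfactory receptor gene Or9e1b was the third with opposite calls. It was dim in every group, at 4.62 to 5.11, and detected on 0 silica arrays at 3 weeks and 0 air arrays at 6 weeks. The silica effect was at least 1.11-fold lower at 3 weeks and at least 1.12-fold higher at 6 weeks (adjusted p of the difference 0.0606). Against these 3 genes stood the 465 higher and 282 lower at both weeks.

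Other positive differences did not pass and came with different calls at the single weeks. Chst1, a carbohydrate sulfotransferase, was higher by 0.79 at 3 weeks and 1.15 at 6 weeks (difference 0.36 ± 0.09), and Pdzk1ip1, a small membrane protein, by 0.83 and 1.30 (difference 0.47 ± 0.12), both with adjusted p = 0.147. Tmco3 went from -0.08, which did not pass at 3 weeks, to 0.29 (difference 0.38 ± 0.09, adjusted p = 0.134). Tmem100 and Rpl7 were lower at 3 weeks, at -0.35 and -0.27, and not called at 6 weeks, at 0.03 each (adjusted p of the difference 0.447 and 0.563). For Chst1 and Pdzk1ip1 the silica groups of the 2 weeks differed by 0.08 and 0.16, neither called, and the air groups by -0.28 and -0.32, both called. For both genes the air levels differed more than the silica levels, and week and array set cannot be told apart in either.

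On the negative side, Klk6, a kallikrein-related serine protease, had the largest difference after Bpifa1, whose spread was wider. Klk6 in air rats was 6.81, 7.60 and 8.09 (lowest, median, highest) at 3 weeks and 7.07, 7.81 and 7.95 at 6 weeks. In silica rats it was 8.25, 8.42 and 8.53 at 3 weeks and 6.37, 6.84 and 8.20 at 6 weeks. All silica rats were above all air rats at 3 weeks, while at 6 weeks the groups overlapped and the silica rats spread most widely. The effects of 0.88 ± 0.25 (adjusted p = 0.0164) and -0.54 ± 0.25 (adjusted p = 0.153) gave a difference of -1.42 ± 0.36 that did not pass (adjusted p = 0.169). Itga11, the integrin subunit of a collagen receptor, had an effect of 0.00 at 3 weeks and fell by 0.52 at 6 weeks (difference -0.53 ± 0.13, adjusted p = 0.169). Kcnip3, a calcium-binding protein, had 0.17 and -0.32 (difference -0.50 ± 0.12, adjusted p = 0.147). For Paf1, Tmem254, Mettl24 and Tmem109 the differences were between -0.28 and -0.38, with adjusted p from 0.147 to 0.243. The Tmem254 probe was detected on only 3 or 4 of 6 arrays in each of the 4 groups, despite mean levels of 9.87 to 10.07. With a background taken from all probes the differences of Kcnip3, Itga11 and Ctf1 shrank to -0.057, -0.066 and -0.066, and that of Klk6 to -0.78.

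Many chemokines were higher with silica at both weeks, and Cxcl6 was the member with a called difference. Of 31 tested chemokines, 16 were called higher and 1 lower at 3 weeks, 17 and 1 at 6 weeks, and 14 were higher at both. The background was 7.51% of genes called higher at 3 weeks and 8.8% at 6 weeks. The difference was called for 1 of 31, against 0.0771% of all genes, and was above 0 for 17, against 46.6%. Its median was 0.04, against -0.01 for all tested genes. Cxcl1, another neutrophil attractant, had medians of 10.43 in air and 11.51 in silica at 3 weeks and of 9.98 and 12.09 at 6 weeks. Air and silica rats overlapped at 3 weeks (9.32 to 11.25 and 11.05 to 11.61) and were apart at 6 weeks (9.73 to 10.59 and 11.93 to 12.36). It was 2.04-fold higher at 3 weeks and 4.10-fold higher at 6 weeks, yet the difference of 1.0 ± 0.28 did not pass (adjusted p = 0.268). Cxcl2 and Ccl2, named for their roles after their values were seen, showed the same order, with 0.85 and 1.61 for Cxcl2 and 1.03 and 1.76 for Ccl2 (adjusted p of the difference 0.380 and 0.553). Their silica groups differed between the weeks by -0.03 and 0.01, and their air groups by -0.79 and -0.72. For Cxcl3 the 2 effects were equal, 0.35 and 0.34, with an interval of the difference from -0.17 to 0.15. Chemokines of lymphoid tissue had the lowest differences, -0.93 ± 0.49 for Ccl19 and -0.77 ± 0.71 for Cxcl13, with single high air rats in each (adjusted p = 0.644 and 0.804).

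IL-1, TNF and NF-kB signalling genes held 2 of the 7 called differences, Nfkbiz and Tnfaip2. Both were tested only because their probes were detected in the silica rats at 6 weeks, where they were high. Their calls are therefore no separate support for the list. Of 30 tested, 9 were called higher at 3 weeks and 15 at 6 weeks, 8 at both and 7 at 6 weeks alone, and 1 was lower at each. Of all genes, 7.51% and 8.8% were called higher, and counts at single weeks do not show that the effects differed. The difference was called for 2 of 30, against 0.0771% of all genes. It was positive at unadjusted p under 0.05 for 8, which include these 2, against 3.72% of all genes. The list was chosen with earlier results of these data known. The median difference was 0.10, and it ran from 0.03 to 0.10 over the scalings and background settings tried. Il1a, interleukin-1 alpha, had an effect of 0.22 that did not pass at 3 weeks and rose by 0.65 at 6 weeks (difference 0.43 ± 0.13, adjusted p = 0.299), with silica groups that differed by -0.17 and air groups by -0.60. Irak2, a kinase below the IL-1 receptor, had 0.03 and 0.43 (difference 0.39 ± 0.16, adjusted p = 0.512), and Ikbke, an IkB kinase relative, 0.26 and 0.64 (0.38 ± 0.13, adjusted p = 0.439). Il1r2, the decoy receptor of IL-1, was higher at both weeks, by 0.84 and 1.18. The NF-kB subunits did not share this order. Rela had 0.03 and 0.02, neither called, and Nfkb2 was higher by 0.20 at each week.

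MHC class II genes had the highest median difference of the pathway lists without a called member. Of 15 tested, 7 were called higher at 3 weeks and 10 at 6 weeks, and 1, Cd40, was lower at 6 weeks, where 7.51% and 8.8% of all genes were called higher. The difference was above 0 for 13 of 15, against 46.6% of all genes, with a median of 0.16. It passed for 0 in limma and was positive at unadjusted p under 0.05 for 4, against 3.72% of all genes. RT1-Ba, an alpha chain of the class II molecule, had air medians of 10.41 and 10.30 and silica medians of 10.63 and 10.79 at 3 and 6 weeks. Air and silica overlapped at 3 weeks and were apart at 6 weeks, where the lowest silica rat was at 10.74 and the highest air rat at 10.45. Its effect was 0.17 at 3 weeks, which did not pass, and 0.53 at 6 weeks (difference 0.36 ± 0.09, adjusted p = 0.169). Ciita, the master activator of class II transcription, had 0.18 and 0.45, and only the latter passed (difference 0.27 ± 0.12, adjusted p = 0.537). RT1-Db1 had 0.16 and 0.43, and RT1-DOb -0.10 and 0.25. Cd74, the invariant chain, was higher by 0.43 and 0.48, with an interval of the difference from -0.19 to 0.29. Without silica rat 4 at 3 weeks the median difference of the list was 0.13, and that of RT1-Db1 dropped from 0.27 to 0.14. Class II genes are related in sequence, and cross-hybridisation between them was not tested.

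**Figure D4:**
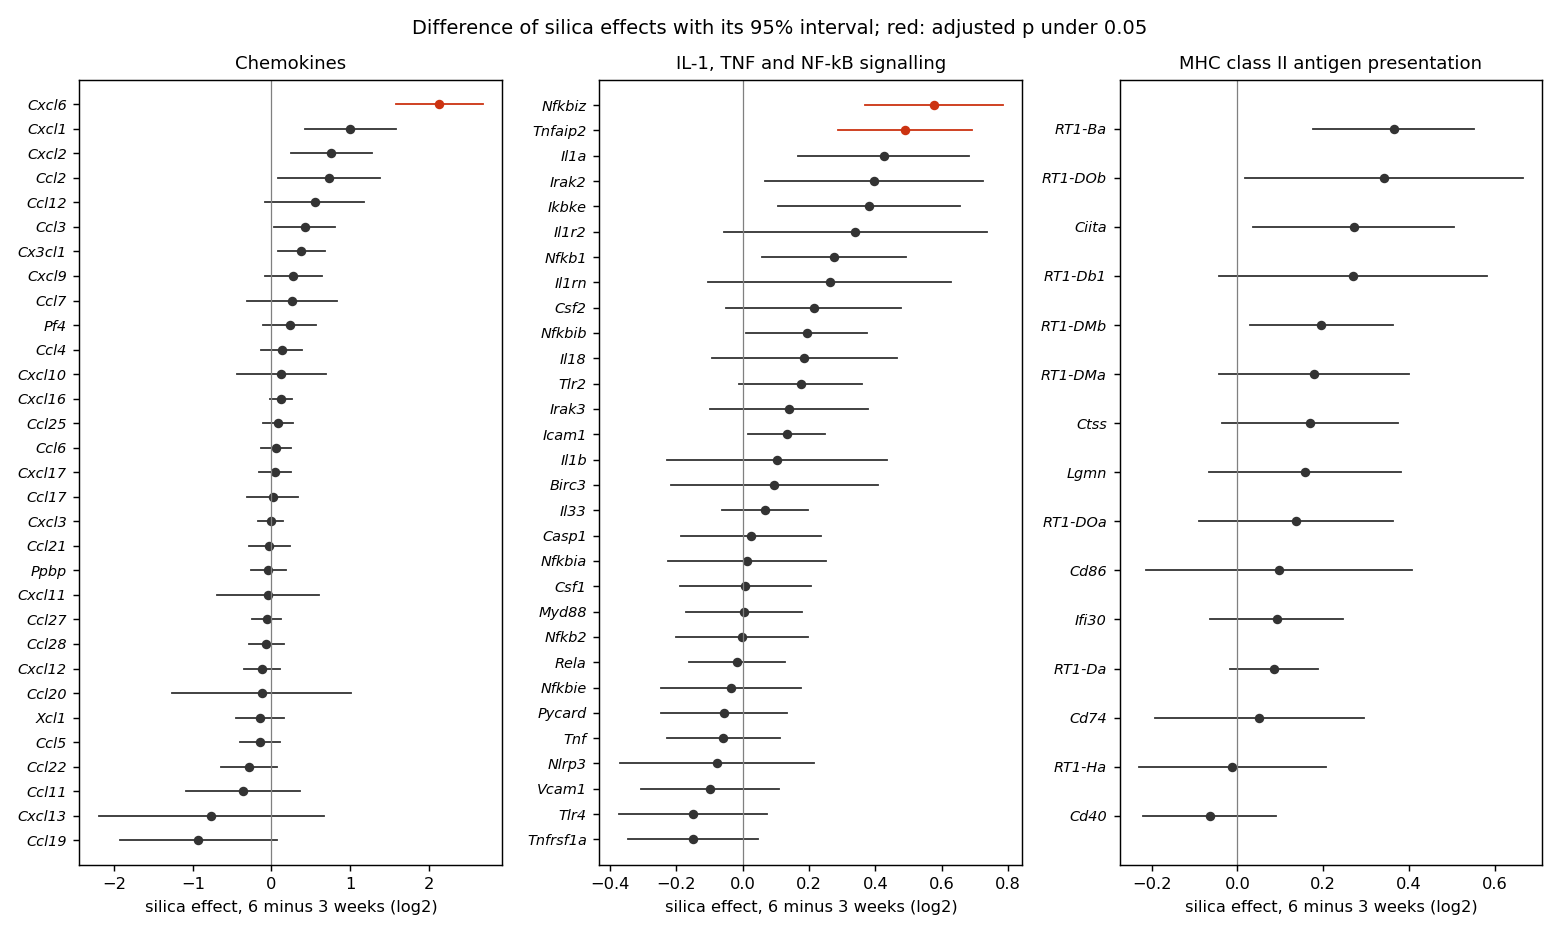
Difference of silica effects, 6 minus 3 weeks (log2), with its 95% interval for each tested gene of 3 lists; red marks an adjusted p under 0.05. Cxcl6, Nfkbiz and Tnfaip2 are red, and the MHC class II genes lie to the right of 0 except RT1-Ha and Cd40.

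Secreted defence and oxidant genes had no called difference, and their members differed in order. Lcn2, lipocalin 2, which binds bacterial iron carriers, rose by 1.87 at 3 weeks and 3.03 at 6 weeks (difference 1.16 ± 0.37, adjusted p = 0.374). Its silica medians were 9.82 and 9.57 and its air medians 7.97 and 6.42, so the silica groups differed by -0.27 and the air groups by -1.42. Noxo1, the organiser of the NADPH oxidase NOX1, rose by 1.59 and 2.33 (difference 0.75 ± 0.24, adjusted p = 0.342), again with silica groups that were close, at 0.10, and air groups at -0.65. Slpi, a secreted inhibitor of neutrophil proteases, had 0.64, which passed, and 0.30, which did not (difference -0.34 ± 0.23, adjusted p = 0.723). Bpifa1, a secreted airway protein, had 1.22 and -0.34, neither called (difference -1.56 ± 1.67). The list of acute phase and defence proteins had 9 of 19 members higher at 3 weeks and 8 at 6 weeks, against 7.51% and 8.8% of all genes. The difference of silica effects was above 0 for 10 of the list, against 46.6% of all genes. Its median difference of 0.00195 turned negative under other scalings. Pigr, which carries immunoglobulins across epithelium, had 0.27 and 0.58, of which the second passed, and its difference dropped from 0.31 to 0.22 without silica rat 4 at 3 weeks. Of 16 NADPH oxidase and nitric oxide genes, 7 were higher at 3 weeks and 8 at 6 weeks, against the same 7.51% and 8.8%, with a median difference of 0.06. Among antioxidant genes, Sod2 was higher by 0.75 and 1.08 and Hmox1 by 0.49 and 0.79, with adjusted p of the difference of 0.525 and 0.578.

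Marker lists of cell types were counted in the same way, against 7.51% of all genes called higher at 3 weeks and 8.8% at 6 weeks, and none had a called difference. Alveolar macrophage markers had a median effect of 0.27 at 3 weeks and 0.47 at 6 weeks, with 11 and 13 of 18 called higher. Their median difference was 0.08, and 0.03 at the lowest over the scalings tried, and Fabp4 among them had a difference of -0.53 ± 0.24 (adjusted p = 0.577). Type II pneumocyte markers had 6 and 8 of 14 called higher, with a median difference of 0.07. Sftpd among them had 0.11 and 0.46, and its difference of 0.35 fell to 0.17 without silica rat 4 at 3 weeks. Neutrophil markers showed 4 and 5 of 14 higher, such as S100a8 at 0.48 and 0.74. Of 17 monocyte and dendritic cell markers, 8 were higher at 3 weeks and 7 at 6 weeks, with a median difference of 0.02 that turned negative under other scalings. Among them Ly6c had 0.39 and 0.71 and Clec10a 0.23 and 0.51, all called, while Cx3cr1 had 0.20, which passed, and -0.07, which did not. Whether shifts in these cells carried the differences of single genes was not tested.

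Vascular, lymphocyte and matrix genes were more often called lower at 6 weeks, against a background of 6.08% of genes lower at 3 weeks and 8.5% at 6 weeks. Of 27 endothelial markers, 9 were lower at 3 weeks and 18 at 6 weeks, with a median difference of -0.05. Of 29 T and NK cell markers, 4 and 12 were lower, with Cd3d at -0.03 and -0.29 and Cd247 at -0.13 and -0.33, in each of which the second value passed. Of 31 collagen and matrix genes, 5 and 9 were lower, and the difference was above 0 for 7, against 46.6% of all genes. Col13a1, a membrane collagen, had -0.01 and -0.34 (difference -0.33 ± 0.09, adjusted p = 0.250), and Col6a1 had 0.06 and -0.21 (-0.26 ± 0.08, adjusted p = 0.312). Spp1, osteopontin, stood against these at 0.46 and 1.06, neither of which passed, with an interval of the difference from -0.56 to 1.75. None of the differences of these lists passed, so the counts at single weeks do not show that the effects differed.

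For 19 ciliated cell markers the difference was above 0 for 2, against 46.6% of all genes, with a median of -0.12. Silica against air was called higher in limma for 1 at 3 weeks and 0 at 6 weeks, against 7.51% and 8.8% of all genes. At unadjusted p under 0.05 the difference was lower for 1 and higher for 0, against 4.56% and 3.72% of all genes. Krt15, a keratin of basal cells, rose by 0.75 at 3 weeks and stood at -0.03 at 6 weeks, where it did not pass (difference -0.77 ± 0.24, adjusted p = 0.325). Aldh3b1, an aldehyde dehydrogenase, had 0.36, which passed, and -0.12 (difference -0.48 ± 0.14, adjusted p = 0.299). Of 24 xenobiotic and aldehyde genes, the difference was below 0 at unadjusted p under 0.05 for 5 and above 0 for 1, against 4.56% and 3.72% of all genes. Of 35 cell cycle and DNA replication genes, 14 were called higher at 3 weeks and 16 at 6 weeks, against 7.51% and 8.8% of all genes. Rrm2, a subunit of ribonucleotide reductase, had 0.26, which did not pass, and 0.74 (difference 0.48 ± 0.14, adjusted p = 0.294).

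Lists of housekeeping machinery stayed near the median of all genes. The median difference was -0.00327 for 28 oxidative phosphorylation genes, -0.0208 for 32 proteasome genes and 0.00675 for 38 ribosomal proteins, and the last turned negative under other scalings. Heart and skeletal muscle genes had the highest median difference of any list, 0.31 over 23 genes, with 0 called in limma and 0 at unadjusted p under 0.05. Their levels varied among rats of a group rather than between groups. Myh6, the atrial myosin heavy chain, ran from 4.64 to 11.73 in air rats and from 4.85 to 11.57 in silica rats at 3 weeks, and its difference turned from 0.70 to -0.12 without silica rat 4 at 3 weeks. The list median was 0.05 without that rat and 0.02 with a background taken from all probes.

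**Figure D5:**
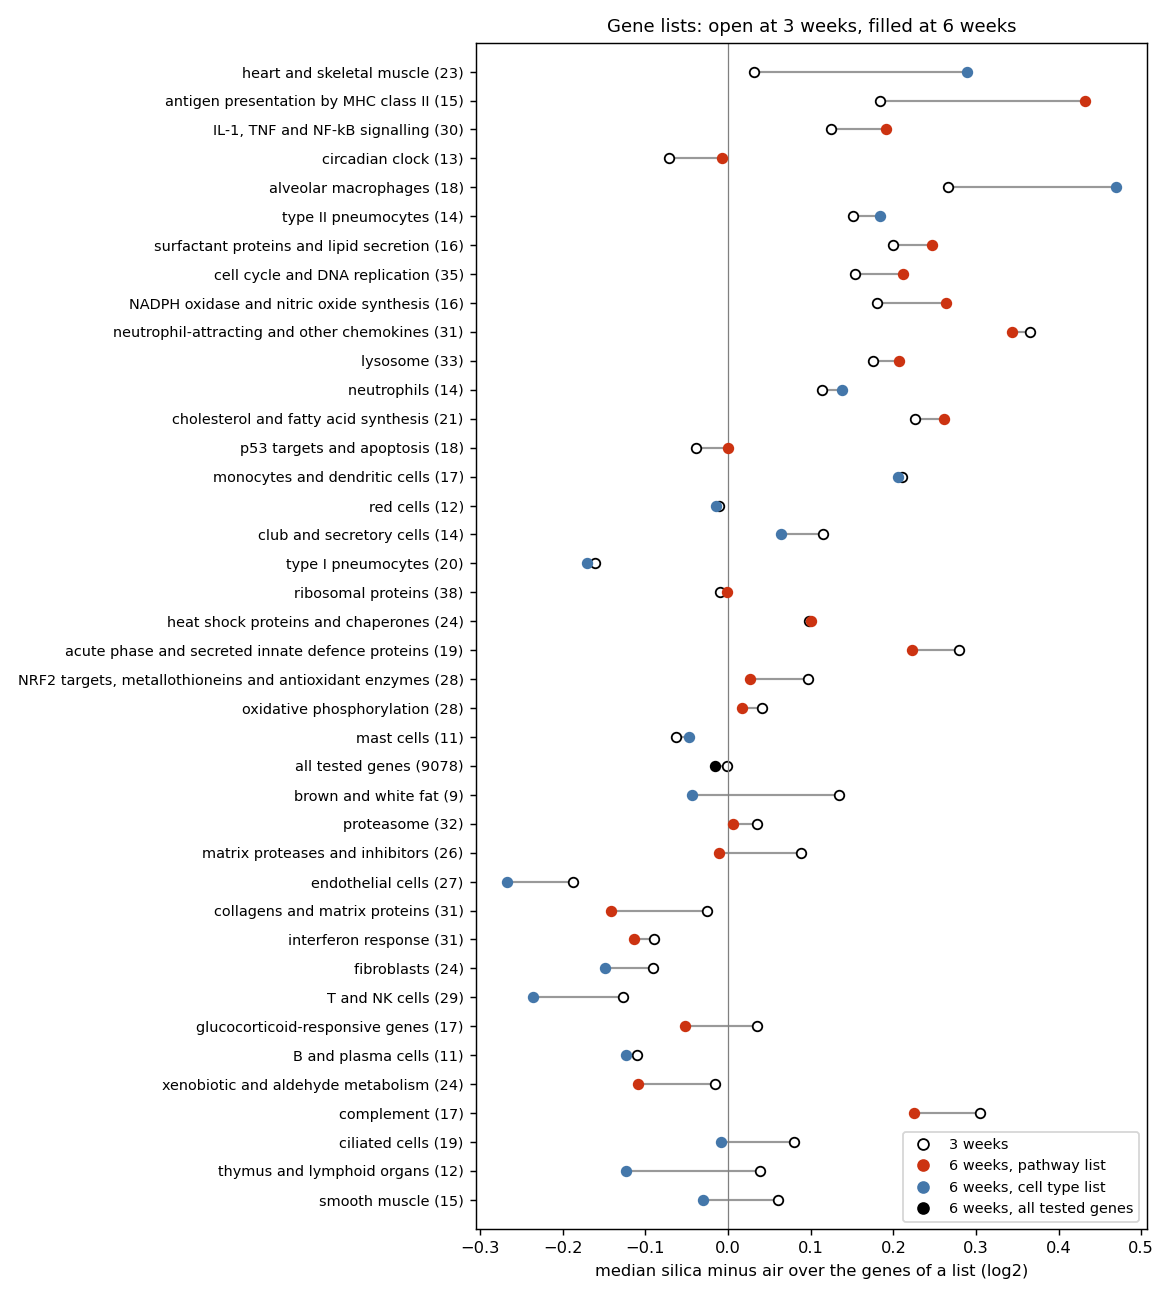
Median silica-minus-air difference (log2) over the tested genes of each list (number in parentheses), at 3 weeks (open) and 6 weeks (filled; red pathways, blue cell types, black all tested genes), ordered by the median difference of silica effects. MHC class II genes go from 0.18 to 0.43, alveolar macrophage markers from 0.27 to 0.47 and T and NK cell markers from -0.13 to -0.24.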

How the data were processed

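Total lung RNA (375 ng) of 1 rat per array was hybridised to Illumina arrays. The deposited tables hold non-normalized intensity and a detection p-value per probe, per the file headers. The authors' own processed values, deposited as log2 expression, were used as an alternative. BeadStudio, lumi and limma are named, without parameters used here, per the submitters' processing notes. Intensities were corrected with normexp, taking the background from 21204 probes, since control probes were not used here, given an offset of 16, quantile normalised and put on a log2 scale in R 4.3.3 with limma 3.58.1. This departs from limma's neqc, which uses control probes. A probe was kept when detected at p under 0.05 on at least 6 arrays, and the gene name came from RefSeq tables. One limma model held 6 group means over 36 arrays (30 residual degrees of freedom), and p-values were Benjamini-Hochberg adjusted over 9078 genes, with a threshold of 0.05. The code was tested on simulated data. The number of arrays limits the precision, and replicates are rats, with shared chips not given in the labels. A group with the probe detected on 0 of 6 arrays has a bound, its level set to the higher of the probe's value and the lowest signal among detected probes. Replicate numbers did not pair rats.

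Genes were named by rule among those detected on at least 1 array of each of the 4 groups: the 15 called genes with the most positive and the 10 with the most negative difference, or all called genes where fewer, filled up to 8 per direction by p. The rule added up to 4 called genes per direction that were undetected in a group, up to 4 members of each list by size of difference, and genes with opposite calls at the 2 weeks. Other genes described were chosen after their values were seen. The members and lists were chosen with earlier results of these data known. Alternatives covered background, offset, scaling, filter, array weights, the replicate block and leaving out each rat.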

Additional observations from a re-analysis of the deposited data

Results flagged for a closer look

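The silica effect differed between 6 and 3 weeks, by the test of the difference itself, for 7 genes. The log2 differences were 2.14 for Cxcl6, 0.87 for Rnase9, 0.84 for Stra6l, 0.58 for Nfkbiz, 0.49 for Tnfaip2, 0.37 for Enpp2 and -0.91 for Dmkn.

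In 27 of 336 groups of 6 rats (84 described genes in 4 groups), the gap of the highest or lowest rat to its neighbour took a larger share of the group's range than the critical 0.625. Chance flags about 1 in 20 groups, and genes that move together are not independent. Silica rat 4 at 3 weeks was the rat apart in 10 of the 27. It was the lowest of its group for Psap with a share of 0.937, Sftpd with 0.814, Rpl7 with 0.776, Pigr with 0.767, RT1-Ba with 0.697, Ly6c with 0.693, Rpl5 with 0.689 and Mmp12 with 0.631, and the highest for Col6a1 with 0.667 and Tmem109 with 0.665. Without this rat 5 genes were called higher and 1 lower. Air rat 5 at 3 weeks was highest for RT1-Db1 with 0.762, Hmgb2 with 0.749 and RT1-DOb with 0.642, and lowest for Aldh3b1 with 0.747. Without it 4 genes were called higher and 1 lower.

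The other 13 groups were spread over genes and rats. In air rats at 3 weeks, rat 4 was highest for Slpi (0.762) and Ccl19 (0.626), and rat 1 lowest for Tmem100 (0.679). In silica rats at 3 weeks, rat 2 was lowest for Aldh1a2 (0.638). In air rats at 6 weeks, rat 2 was highest for Cx3cr1 (0.721), rat 6 for Cxcl13 (0.644) and rat 4 for Lcn2 (0.639), and rat 4 was lowest for Gbp5 (0.63). In silica rats at 6 weeks, rat 6 was highest for Ms4a1 (0.714) and lowest for Cdkn3 (0.685), rat 1 was highest for Rrm2 (0.695), rat 2 for Tnfaip2 (0.689) and rat 5 for Krt15 (0.678). Without silica rat 2 at 6 weeks the difference of Tnfaip2 was 0.43 and did not pass (adjusted p = 0.0689).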

How the results depend on the processing

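For the 7 called genes and those next in line, 21 in all, the difference of silica effects kept its sign under the alternatives run. Among the other genes described, the sign turned for Myh6 (0.70 to -0.12), Mmp12 (-0.12 to 0.02) and Retnla (0.03 to -0.11) when single rats were left out. Against 6 genes called higher and 1 lower, a background from all probes gave 12 higher, of which 4 were shared. The 24 arrays alone and array weights each gave 3 lower, and leaving out the 2 arrays that stand apart, chosen after seeing the data, gave 3 lower. Restricting the test to 6828 genes detected on all 24 arrays, which drops the dim probes, gave 2 higher and 0 lower in limma (275 and 333 at unadjusted p under 0.05). Of at least 1.5-fold, 3 were higher and 1 lower. The count lower was 0 with a background from all probes, no background correction, an offset of 50, the authors' values and the 24-array filter, and the count higher was 1 with the last 2. Dmkn stayed called wherever it was tested, with differences down to -0.09, and the 24-array filter left it out. That filter tests fewer genes. Why the differences shrank under other settings was not tested. Leaving out single rats gave 4 to 9 higher and 1 to 4 lower, and 2 to 5 and 1 to 2 of at least 1.5-fold. Whatever the size of the difference, the count lower rose to 4 without air rat 1 at 3 weeks. It rose to 2 without air rat 4 or silica rat 2 at 3 weeks, or air rats 1 or 2 or silica rat 6 at 6 weeks. Same-numbered rats deviated with correlations of -0.272 to 0.444, so the numbers do not pair the rats. The replicate block gave 6 higher and 2 lower, the second being Ctf1 (adjusted p = 0.0482). Dim probes limit Cxcl6, Stra6l, Nfkbiz, Tnfaip2 and Dmkn, among others.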

Other observations

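Genes known from mesothelium, the lining of the pleura, were chosen after their values were seen, and none had a called difference. Msln, mesothelin, had lowest, median and highest levels of 8.75, 10.02 and 10.66 in air and 9.33, 9.85 and 10.46 in silica at 3 weeks. At 6 weeks they were 9.67, 10.20 and 10.85 in air and 7.85, 9.62 and 9.94 in silica. The groups overlapped at both weeks. Its silica effect was 0.06 at 3 weeks, -0.89 at 6 weeks and 0.31 at 12 weeks (difference -0.95 ± 0.48, adjusted p = 0.618). Upk1b had -0.25 and -0.92, of which the second passed (adjusted p = 0.0101), and Gpm6a and Igfbp6 had 0.06 and -0.63, and -0.07 and -0.73. The amount of pleura in each sample was not measured, and its part was not tested.

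A further 3525 probes without a gene symbol were tested, and the difference was called for 0 in limma, with 315 at unadjusted p under 0.05.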
